A study of Rattus norvegicus with 7 samples.

Results

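The 10 genes followed here, all of the unfolded protein response or the integrated stress response, were read in rat testis after cadmium: Atf4, Ddit3, Trib3, Asns, Hspa5, Xbp1, Herpud1, Sesn2, Ppp1r15a and Eif2ak3. Every probe set that the platform annotation assigns to 1 of these 10 genes alone was taken, which gave 13 of the 31099 probe sets of the array, and 9 of the 13, for 9 genes, were bright enough to be tested. Gene expression had been measured on Affymetrix Rat230_2 arrays, with 1 array for each testis sample of adult male Sprague-Dawley rats, an outbred laboratory stock with no engineered allele. Untreated rats (0 h, 3 arrays) served as the baseline, and the others had been given cadmium chloride, a salt whose metal damages the testis, once at 3 mg/kg into the abdominal cavity, with testes taken at 8 h (2 arrays) or 20 h (2 arrays). No group injected with vehicle alone is among these samples, so the injection and the metal cannot be told apart. Arrays are called biological replicates in the labels and are taken here to be separate animals, whose small number sets the precision of every value.

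The endoplasmic reticulum (ER) folds secreted and membrane proteins, and an excess of unfolded protein there is sensed by membrane proteins, among them the kinase PERK (gene Eif2ak3), the nuclease IRE1 (Ern1) and ATF6. PERK and its relatives phosphorylate the translation initiation factor eIF2, which lowers general protein synthesis while translation of the Atf4 message rises, and ATF4 then drives genes for amino acid supply, for redox balance and, through Ddit3 (CHOP), for cell death. IRE1 splices the Xbp1 message, and the spliced XBP1 and ATF6 drive chaperones such as Hspa5 (BiP) and the machinery that degrades misfolded proteins. Spermatogenic cells and Sertoli cells carry a high load of membrane and secreted protein, and cadmium is known to disturb thiol chemistry and blood vessels in the testis. The arrays measure mRNA levels: translation of Atf4, phosphorylation of eIF2 and splicing of Xbp1 were not measured, and in whole tissue fewer cells of a type and less RNA per cell cannot be told apart.

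Hybridization took place on 3 days. Day 1 held 20 h replicate 1 with untreated replicate 1, day 2 untreated replicate 2 alone, with another staining step, and day 3 the pair of 8 h arrays, 20 h replicate 2 and untreated replicate 3. Day and group overlap only in part, so differences of the testable members are also given on the same day. Such a same-day difference is log2(signal + 15) on the cadmium array less the value on the untreated array hybridized with it. Most genes of the further lists are given by the log2 fold change between groups alone, which can hold a difference between days. The trimmed mean signal was 250.1 on each array, and the log2 values of the arrays correlated with each other at 0.948 to 0.980. The tissue label was borne out by markers of germ cells (Prm1 at 16767.1 or more on each array), Sertoli cells (Clu at 7114.6 or more) and Leydig cells (Insl3 at 1126.7 or more). Actin, whose 3′ over 5′ signal serves as a sign of RNA quality, had a log2 ratio of 0.92 on 20 h replicate 1, of 0.99 on untreated replicate 1, and of 1.19 to 1.42 on the day 3 arrays. It was lowest on untreated replicate 2, at 0.73. Signals of a gene are compared between arrays within its own probe set, never with those of another gene, because probe sets differ in how brightly they bind. For the same reason a signal summed over the markers of a cell type weights its brightest probe sets most.

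Across the 9 testable members, no mRNA passed the test between groups at either time. At 8 h against untreated, 0 of the 9 member probe sets passed an adjusted p of 0.05 in limma, where 0 of all 20857 probe sets did (0%), and 0 of 9 had an unadjusted p under 0.05, where 5.22% of all probe sets did. At 20 h against untreated the members called were again 0 of 9, beside 0% of all probe sets after adjustment and 3.11% before it. For 20 h against 8 h the count was 0 of 9 as well, beside 0% and 1.92%. What stood out was a single animal: on 20 h replicate 1, Atf4 and Ppp1r15a were at least 2-fold above the untreated array of the same day, 2 of 9 members where 1.4% of all probe sets were. No member was 2-fold lower on that array, as 2.73% of all probe sets were. On 20 h replicate 2 no member was 2-fold higher or lower, against 2.24% and 2.61% of all probe sets. The same held on 8 h replicate 1, against 2.61% and 2.41%, and on 8 h replicate 2, against 2.25% and 2.6%.

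**Figure D1:**
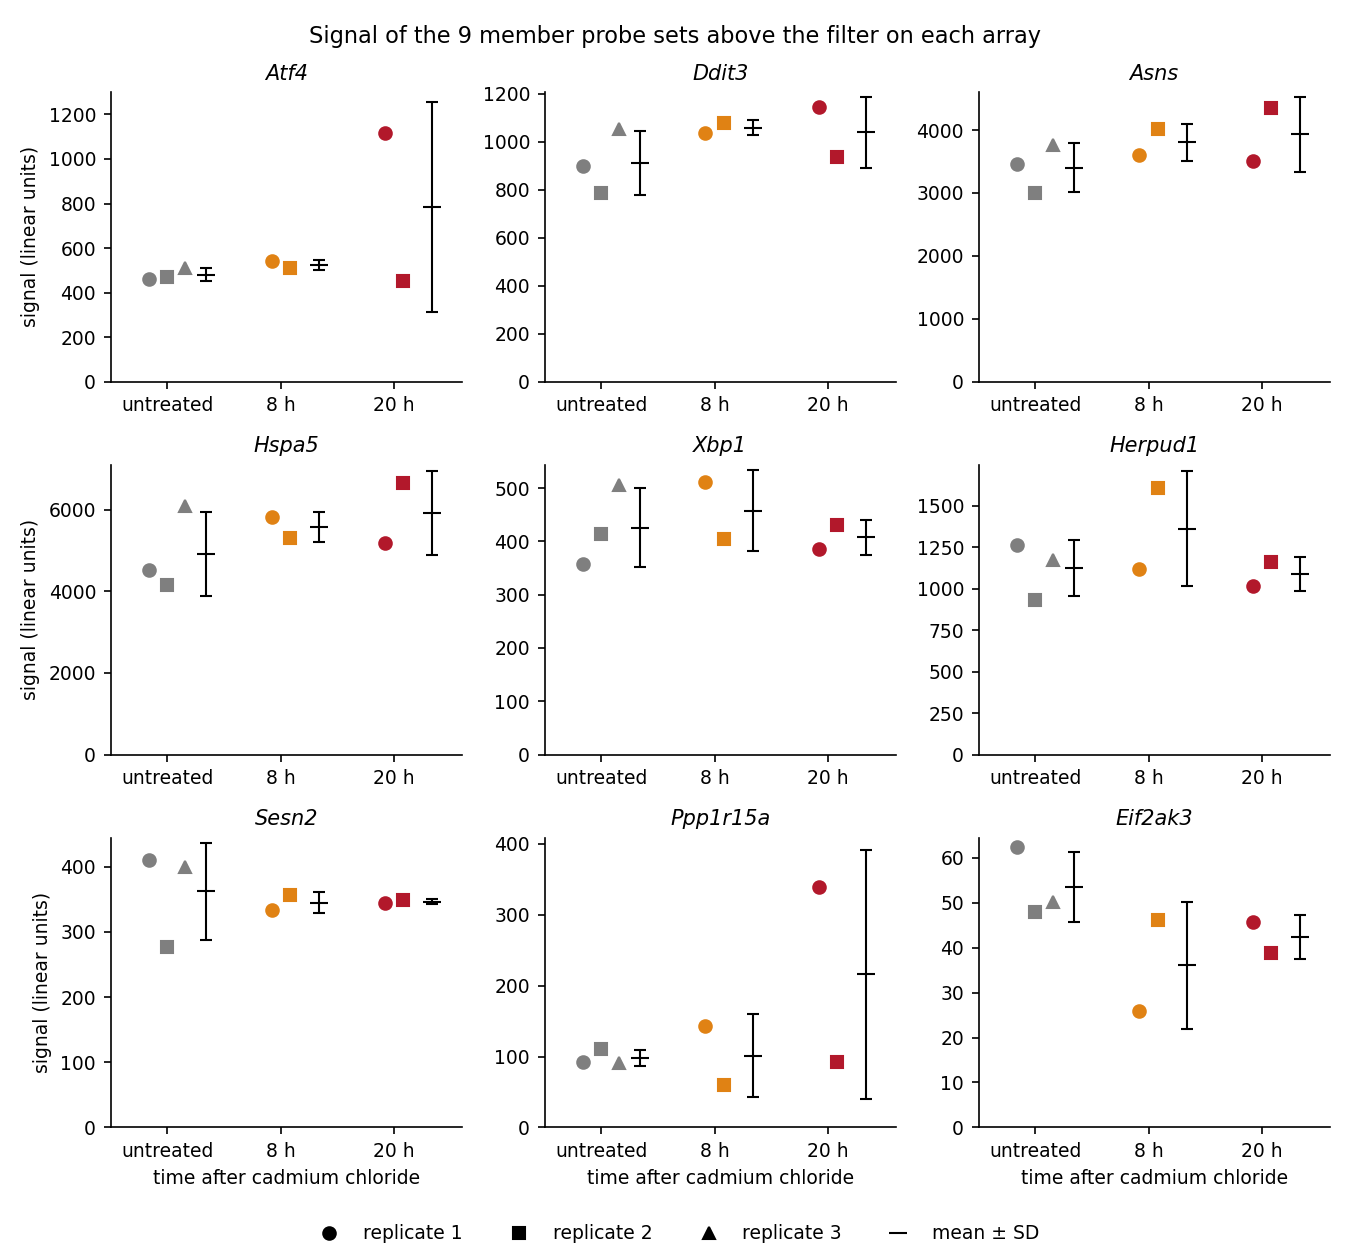
Signal (linear units) of the 9 member probe sets above the filter on each array, by time after cadmium chloride; symbols mark the replicate and bars the mean ± SD of 3 untreated, 2 8 h and 2 20 h arrays. Atf4 and Ppp1r15a stand apart on 20 h replicate 1, at 1115.9 and 339.8, and lie within or near the untreated values on 20 h replicate 2, at 449.8 and 92.1.

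The kinase arm was described first, from sensor to transcription factor to its brake. Atf4, the transcription factor at the centre of the integrated stress response, had signals of 460.9, 468.4 and 512.5 in untreated testis, of 539.8 and 509.3 at 8 h, and of 1115.9 and 449.8 at 20 h. The 3 untreated arrays were close together, with a coefficient of variation of 5.80%, the smallest of the 9 members. The 8 h arrays overlapped them, 20 h replicate 1 was 2.32 times the untreated mean, and 20 h replicate 2 was below each untreated array. Atf4 averaged 524.5 ± 21.6 at 8 h (SD, n = 2), against 480.6 ± 27.9 in untreated testis (SD, n = 3), a log2 fold change of 0.12 ± 0.30 (SE; limma, adjusted p = 0.951). It averaged 782.9 ± 471.0 at 20 h (SD, n = 2), a log2 fold change over untreated of 0.55 ± 0.30 (SE; limma, adjusted p = 0.999), and 20 h against 8 h gave 0.43 ± 0.33 (SE). On the same day the difference was 0.07 and -0.01 for the 8 h arrays, 1.25 for 20 h replicate 1 and -0.18 for 20 h replicate 2. Without 20 h replicate 1 the log2 fold change at 20 h was -0.09, and without 20 h replicate 2 it was 1.19 (limma, adjusted p = 0.133).

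Ppp1r15a (GADD34), the stress-induced subunit that brings a phosphatase to eIF2 and so restores protein synthesis, had the other high value of that animal. Its signal was 92.7, 111.2 and 90.6 in untreated testis, 142.5 and 60.2 at 8 h, and 339.8 and 92.1 at 20 h. The 8 h arrays lay on either side of the untreated ones, 20 h replicate 1 was 3.46 times the untreated mean, and 20 h replicate 2 was within the untreated range. The log2 fold change was -0.05 ± 0.47 at 8 h and 0.79 ± 0.47 at 20 h over untreated, and 0.84 ± 0.52 at 20 h over 8 h (SE; limma, adjusted p = 0.989, 0.999 and 1.00). On the same day the differences were 0.58 and -0.49 for the 8 h arrays, 1.72 for 20 h replicate 1 and 0.02 for 20 h replicate 2. Without 20 h replicate 1 the log2 fold change at 20 h was -0.07, and without 20 h replicate 2 it was 1.65 (limma, adjusted p = 0.397). The ratio of the highest to the lowest array was 5.64 for Ppp1r15a and 2.48 for Atf4, and at most 2.40 for the other testable members.

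The promoters of this pair are shown because their mRNAs were high on the same array. They are the last 120 bases before the RefSeq start in assembly GRCr8, read 5′ to 3′ on the gene's strand, and capitals mark the cyclic AMP response element, a site that CREB and ATF family dimers bind, which was searched as TGACGTCA, its own reverse complement.
Atf4, chr7:113684561-113684680, plus strand: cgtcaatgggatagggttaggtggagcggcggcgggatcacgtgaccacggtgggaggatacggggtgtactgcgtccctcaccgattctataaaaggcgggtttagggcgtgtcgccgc
Ppp1r15a, chr1:105139597-105139716, minus strand: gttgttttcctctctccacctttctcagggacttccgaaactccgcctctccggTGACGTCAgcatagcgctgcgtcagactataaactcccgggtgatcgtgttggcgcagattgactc
The Ppp1r15a element lies 66 to 59 bases before the start. Of 21842 protein-coding promoter windows of 250 bases before to 50 after the start, 459 held these letters (2.1%), and Ppp1r15a was the only one of the 10 members that did. A match is a description of the sequence and not evidence of binding.

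Eif2ak3 (PERK), the ER kinase itself, was dim, with 62.4, 48.0 and 50.2 in untreated testis, 26.0 and 46.1 at 8 h, and 45.8 and 38.9 at 20 h. All 4 cadmium arrays were below each untreated array, so it was the only member whose groups did not overlap. The signal averaged 36.0 ± 14.2 at 8 h and 42.4 ± 4.88 at 20 h (SD, n = 2 each), against 53.5 ± 7.76 in untreated testis (SD, n = 3). The log2 fold change was -0.45 ± 0.31 at 8 h and -0.25 ± 0.31 at 20 h (SE; limma, adjusted p = 0.836 and 0.999), and the 4 same-day differences ran from -0.67 to -0.09. Such a pattern was common on these arrays: 15.4% of all probe sets had both 8 h arrays below each untreated array, 10.7% had both 20 h arrays below, and 4.9% had all 4 below, so 1 of 9 members is near the background. In the other direction no member had both 8 h arrays, both 20 h arrays or all 4 cadmium arrays above each untreated array, where 7.59%, 4.65% and 1.82% of all probe sets did.

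**Figure D2:**
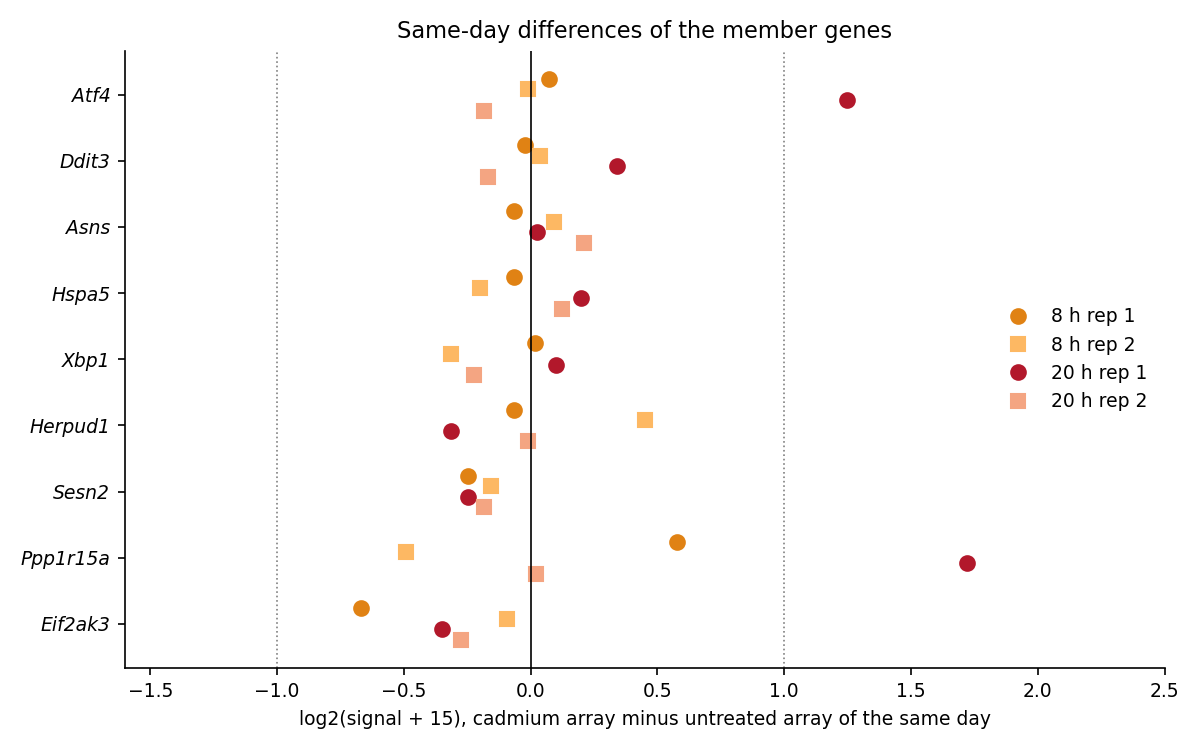
Same-day difference of each testable member, in log2(signal + 15), cadmium less untreated; dotted lines mark a 2-fold difference. The points past the upper line are Atf4 (1.25) and Ppp1r15a (1.72) on 20 h replicate 1, and Eif2ak3 and Sesn2 lie left of 0 on all 4 arrays.

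Of the members that ATF4 is known to drive, Ppp1r15a alone was 2-fold higher on the array with the high Atf4 value. Ddit3, the transcription factor CHOP that links the response to cell death, had 900.1, 787.6 and 1052.7 in untreated testis, 1037.3 and 1080.5 at 8 h, and 1144.4 and 935.6 at 20 h. Its highest value was on 20 h replicate 1, but the groups overlapped, and on the same day that array was 0.34 higher on the log2 scale while the other 3 differences ran from -0.17 to 0.04. The log2 fold change of Ddit3 was 0.22 ± 0.16 at 8 h and 0.19 ± 0.16 at 20 h (SE; limma, adjusted p = 0.839 and 0.999).

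Asns, asparagine synthetase, a classical ATF4 target of amino acid shortage, had 3453.6, 2996.5 and 3761.2 in untreated testis, 3597.8 and 4010.4 at 8 h, and 3514.3 and 4355.6 at 20 h. Its higher 20 h value was on replicate 2, the array on which Atf4 was low. The same-day differences of Asns were small, from -0.06 to 0.21, and its log2 fold change was 0.16 ± 0.15 at 8 h and 0.21 ± 0.15 at 20 h (SE; limma, adjusted p = 0.855 and 0.999).

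Sesn2, a stress-induced leucine sensor that restrains growth signalling, had 2 probe sets. The brighter gave 410.8, 276.8 and 398.8 in untreated testis, 333.3 and 356.7 at 8 h, and 344.0 and 349.0 at 20 h. All 4 cadmium arrays of Sesn2 lay inside the untreated range, while each was below the untreated array of its own day, with same-day differences of -0.25 to -0.15. The log2 fold change of that probe set was -0.05 ± 0.19 at 8 h and -0.04 ± 0.19 at 20 h (SE; limma, adjusted p = 0.973 and 0.999). The second probe set of Sesn2 ran from 13.9 to 58.4 and was above its array's 40th percentile on 1 of 7 arrays, so it did not pass the filter. Fitted with no filter, it had log2 fold changes of -0.28 ± 0.41 at 8 h and 0.29 ± 0.41 at 20 h (SE; limma, adjusted p = 0.907 and 0.999). Its sign at 20 h was opposite to that of the brighter probe set.

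Trib3, a pseudokinase that ATF4 and CHOP induce and that feeds back on ATF4, was not measured above the low end of the arrays by any of its 3 probe sets. The first gave 5.8, 3.0 and 14.0 in untreated testis, 4.9 and 0.8 at 8 h, and 24.4 and 2.8 at 20 h. Another ran from 2.4 to 8.0 and the last from 2.5 to 33.8 over the 7 arrays. The first and the last had their highest value on 20 h replicate 1, yet each of the 3 was above its array's 40th percentile on 0 of 7 arrays, where that percentile was 34.4 to 48.0. Values at this level have no reliable order, so no fold change is given for Trib3.

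The ER arm, represented by the chaperone Hspa5, the transcription factor Xbp1 and the ER membrane protein Herpud1, showed no member with a 2-fold same-day difference on any array. Their promoters are shown because they carry the element through which ATF6 and XBP1 are known to act, and which the kinase arm members lack in the windows read here. The ER stress response element was searched as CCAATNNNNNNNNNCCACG and its second form as ATTGGNCCACG, each on both strands of the same kind of window, and capitals mark the matches (the last 120 bases are shown, and for Herpud1 the last 189); the CARE core, a composite site of ATF4 with C/EBP proteins, was searched as TGATGNAA and is also in capitals where it occurs in Herpud1, on the reverse strand.
Hspa5, chr3:38452896-38453015, plus strand: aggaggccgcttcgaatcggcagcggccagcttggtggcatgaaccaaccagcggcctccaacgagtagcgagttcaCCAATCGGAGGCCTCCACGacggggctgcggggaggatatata
Xbp1, chr14:84604503-84604622, plus strand: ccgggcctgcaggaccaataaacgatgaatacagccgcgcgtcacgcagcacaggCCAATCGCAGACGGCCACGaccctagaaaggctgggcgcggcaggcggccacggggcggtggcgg
Herpud1, chr19:10614708-10614896, minus strand: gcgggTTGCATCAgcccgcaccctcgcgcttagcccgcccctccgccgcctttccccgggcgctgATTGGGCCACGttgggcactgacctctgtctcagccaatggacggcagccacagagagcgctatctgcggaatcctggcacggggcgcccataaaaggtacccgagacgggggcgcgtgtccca
The first form was found in 19 of the 21842 promoter windows (0.087%), among them Hspa5, 43 to 25 bases before the start, and Xbp1, 65 to 47 before it. The second form was found in 13 windows (0.0595%), among them Herpud1, 124 to 114 bases before the start. The CARE core was in 731 windows (3.35%), those of Trib3 and Herpud1 among the members. None of the 4 motifs was in the windows of Atf4, Ddit3, Asns, Sesn2 or Eif2ak3, which says only that these letters do not occur there. ATF4 sites known in other parts of a gene were not searched.

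Hspa5 (BiP), the main chaperone of the ER lumen, had 4518.5, 4150.0 and 6090.7 in untreated testis, 5825.1 and 5305.6 at 8 h, and 5190.6 and 6641.8 at 20 h. The untreated arrays of Hspa5 differed by 1.47-fold among themselves, and the cadmium arrays overlapped them. The same-day differences were -0.06 and -0.20 for the 8 h arrays, 0.20 for 20 h replicate 1 and 0.12 for 20 h replicate 2. The log2 fold change was 0.20 ± 0.19 at 8 h and 0.27 ± 0.19 at 20 h (SE; limma, adjusted p = 0.857 and 0.999).

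Xbp1, whose spliced message encodes the transcription factor of the IRE1 branch, had 357.8, 414.2 and 505.7 in untreated testis, 512.0 and 403.8 at 8 h, and 384.9 and 430.8 at 20 h. The total message overlapped between all groups, and its log2 fold change was 0.11 ± 0.19 at 8 h and -0.05 ± 0.19 at 20 h (SE; limma, adjusted p = 0.926 and 0.999). Its same-day differences were 0.02 and -0.31 for the 8 h arrays, 0.10 for 20 h replicate 1 and -0.22 for 20 h replicate 2. Nothing in these files separates spliced from unspliced Xbp1.

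Herpud1, an ER membrane protein of the degradation complex, had 1263.5, 933.7 and 1169.6 in untreated testis, 1115.4 and 1604.6 at 8 h, and 1012.5 and 1159.6 at 20 h. Its highest value was on 8 h replicate 2, where the same-day difference was 0.45, and its lowest same-day difference was -0.32, on 20 h replicate 1. The log2 fold change was 0.26 ± 0.19 at 8 h and -0.04 ± 0.19 at 20 h (SE; limma, adjusted p = 0.837 and 0.999).

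The members differed in how closely they followed Atf4. Over the 7 arrays the log2 values of Ppp1r15a correlated with those of Atf4 at a Pearson r of 0.89, and at 0.18 over the 6 arrays without 20 h replicate 1. Ddit3 had an r of 0.63 with Atf4 over 7 arrays and 0.72 over 6, and the other 6 members ran from -0.31 to -0.01 over 7 arrays. Over the 6 arrays, Xbp1 had an r of 0.70 (-0.20 over 7) and Eif2ak3 of -0.53 (-0.06 over 7), while Asns, Hspa5, Herpud1 and Sesn2 ran from 0.02 to 0.26. The genes outside the list most like Atf4, among 2658 genes with a log2 range of at least 1 over the 7 arrays, were Serpina3n, an acute-phase protease inhibitor (r = 0.99), Cnn3, an actin-binding calponin (0.98), Hpx, the haem-binding plasma protein hemopexin (0.98), P4ha2, a collagen prolyl hydroxylase (0.98), and F3, tissue factor, which starts blood clotting (0.97). Serpina3n had 398.1 on 20 h replicate 1 and 14.2 to 39.7 on the other 6 arrays. Over the 6 other arrays these correlations ran from 0.50 to 0.78. All arrays share their normalization and some share a day, and with 6 or 7 arrays in 3 groups these correlations are descriptions only. Those of Ppp1r15a and Xbp1 moved most with 20 h replicate 1.

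**Figure D3:**
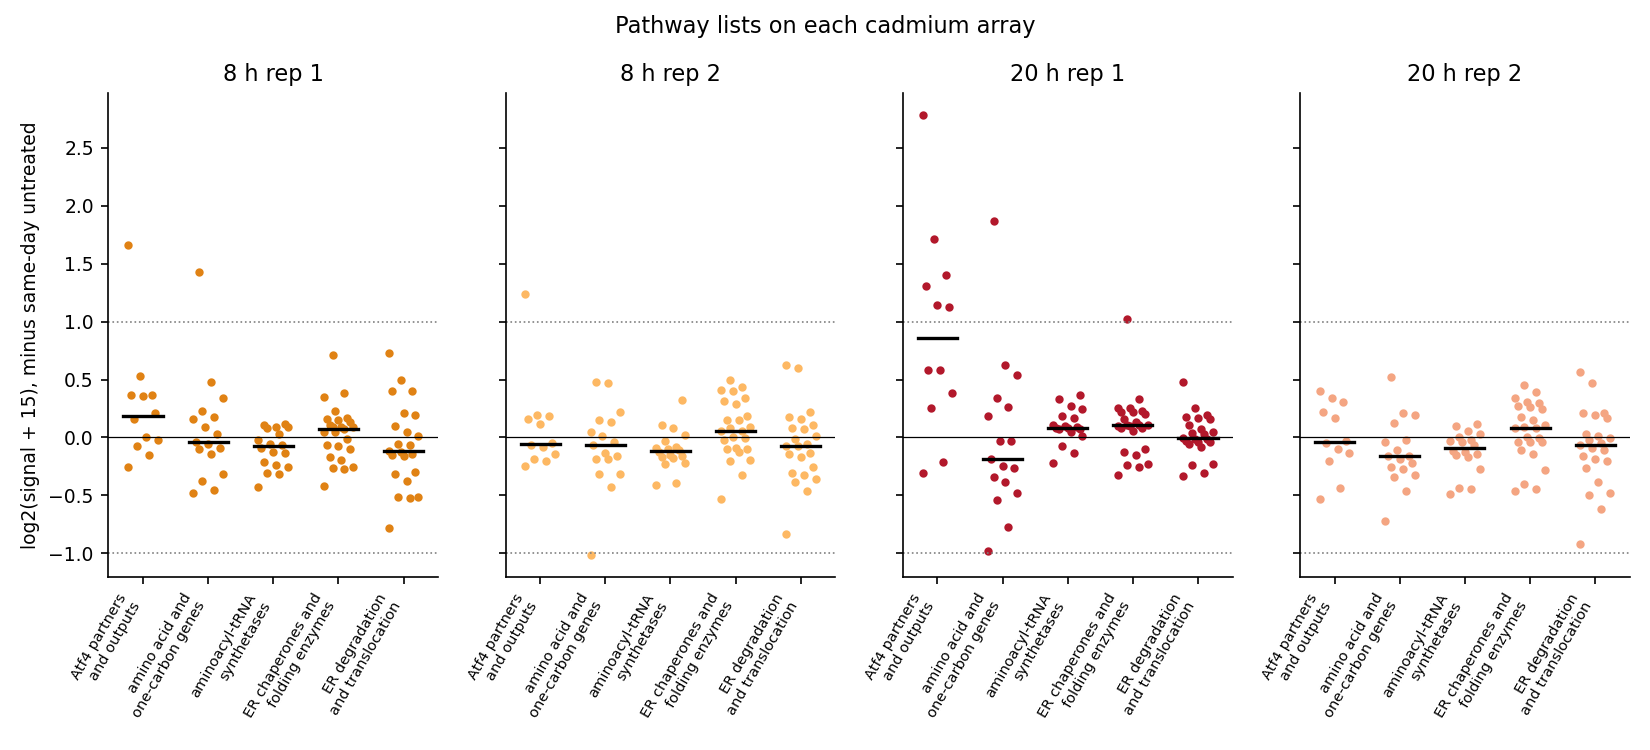
Same-day difference of each gene of 5 pathway lists on each cadmium array, in log2(signal + 15), cadmium less untreated; points are genes, black bars are list medians and dotted lines mark 2-fold. The median of the Atf4 partners and outputs was 0.86 on 20 h replicate 1, with -0.05 to 0.19 as the range of the remaining 3 arrays, and the medians of the other 4 lists drawn lay between -0.19 and 0.10 over the 4 arrays.

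Around the members, 7 further lists of the same pathways were read. Of these 7, the list of transcription partners and outputs of Atf4 stood high on 20 h replicate 1. Hypoxia and glycolysis markers, given below, stood high there as well. Of the 15 genes in the Atf4 list, 12 were above the filter. Of the 12, 6 were at least 2-fold above the untreated array of that day, where 144 of 11552 genes were (1.25%). They were Atf3, Cebpb, Nupr1, Eif4ebp1, Gadd45a and Ndrg1. Atf3 passed the filter only through 8 h replicate 1 (38.5) and 20 h replicate 1 (129.1). Its place among the 6 and the 12 thus follows from its high value there. The same-day differences of the list had a median of 0.86 on 20 h replicate 1. The medians were 0.19 and -0.05 on the 8 h arrays and -0.04 on 20 h replicate 2. At 20 h against untreated, 9 of 12 genes had a higher mean and 3 a lower one, with a median log2 fold change of 0.43, beside -0.03 over all 11552 genes. Without 20 h replicate 1 the counts were 3 higher and 9 lower and the median was -0.15, beside -0.03 over all genes. At 8 h, 6 genes were higher and 6 lower, with a median of 0.03. No gene of the list passed after adjustment at either time (limma), and 2 had an unadjusted p under 0.05 at 20 h.

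Those 2 were Gadd45a and Eif4ebp1. Gadd45a, a growth arrest gene induced by stress and DNA damage, had 142.2, 145.2 and 142.6 in untreated testis, 187.2 and 161.0 at 8 h, and 329.0 and 193.0 at 20 h. All 4 cadmium arrays of Gadd45a were above each untreated array, as for 2.19% of all genes, and the 20 h replicate without the high Atf4 value was also above them. Its log2 fold change was 0.25 ± 0.23 at 8 h and 0.76 ± 0.23 at 20 h (SE; limma, unadjusted p = 0.00919 and adjusted p = 0.999 at 20 h). Eif4ebp1, an inhibitor of cap-dependent translation, had 74.0, 110.0 and 100.1 in untreated testis, 151.6 and 109.8 at 8 h, and 181.9 and 127.0 at 20 h, a log2 fold change at 20 h of 0.62 ± 0.26 (SE; limma, unadjusted p = 0.0366, adjusted p = 0.999).

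Atf3, a repressor that ATF4 induces, was at the floor of the array in untreated testis, with 6.0, 5.0 and 1.9, and had 38.5 and 24.8 at 8 h and 129.1 and 4.0 at 20 h. Both 8 h arrays and 20 h replicate 1 were above the untreated arrays while 20 h replicate 2 was not, and only 2 of the 7 values were above their array's 40th percentile. Its log2 fold changes, 1.26 ± 0.74 at 8 h and 1.45 ± 0.74 at 20 h (SE), rest on values near the 15 added before the log and did not pass (limma, adjusted p = 0.836 and 0.999). Ndrg1, a stress gene that also answers to low oxygen, had 488.0, 504.0 and 227.9 in untreated testis, 256.8 and 263.1 at 8 h, and 1313.1 and 293.2 at 20 h. Cebpb, a C/EBP partner of ATF4, had 178.1 on 20 h replicate 1 and 25.9 on replicate 2, against 43.8, 55.7 and 40.4 in untreated testis. Nupr1, a stress-induced chromatin protein, had 114.1 and 47.0 on these arrays, against 37.1, 57.4 and 49.1 in untreated testis. In contrast Cebpg, another C/EBP partner, had all 4 cadmium arrays below each untreated array, as for 4.40% of all genes. It had 260.1 and 242.3 at 8 h and 209.1 and 262.3 at 20 h, against 262.6, 313.8 and 289.8 in untreated testis. The log2 fold changes of Atf5, an ATF4 relative, were -0.47 at 8 h and -0.04 at 20 h, and those of Ddit4, an inhibitor of mTORC1 signalling, 0.09 and -0.06. Stc2, Jdp2 and Gdf15 were below the filter.

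**Figure D4:**
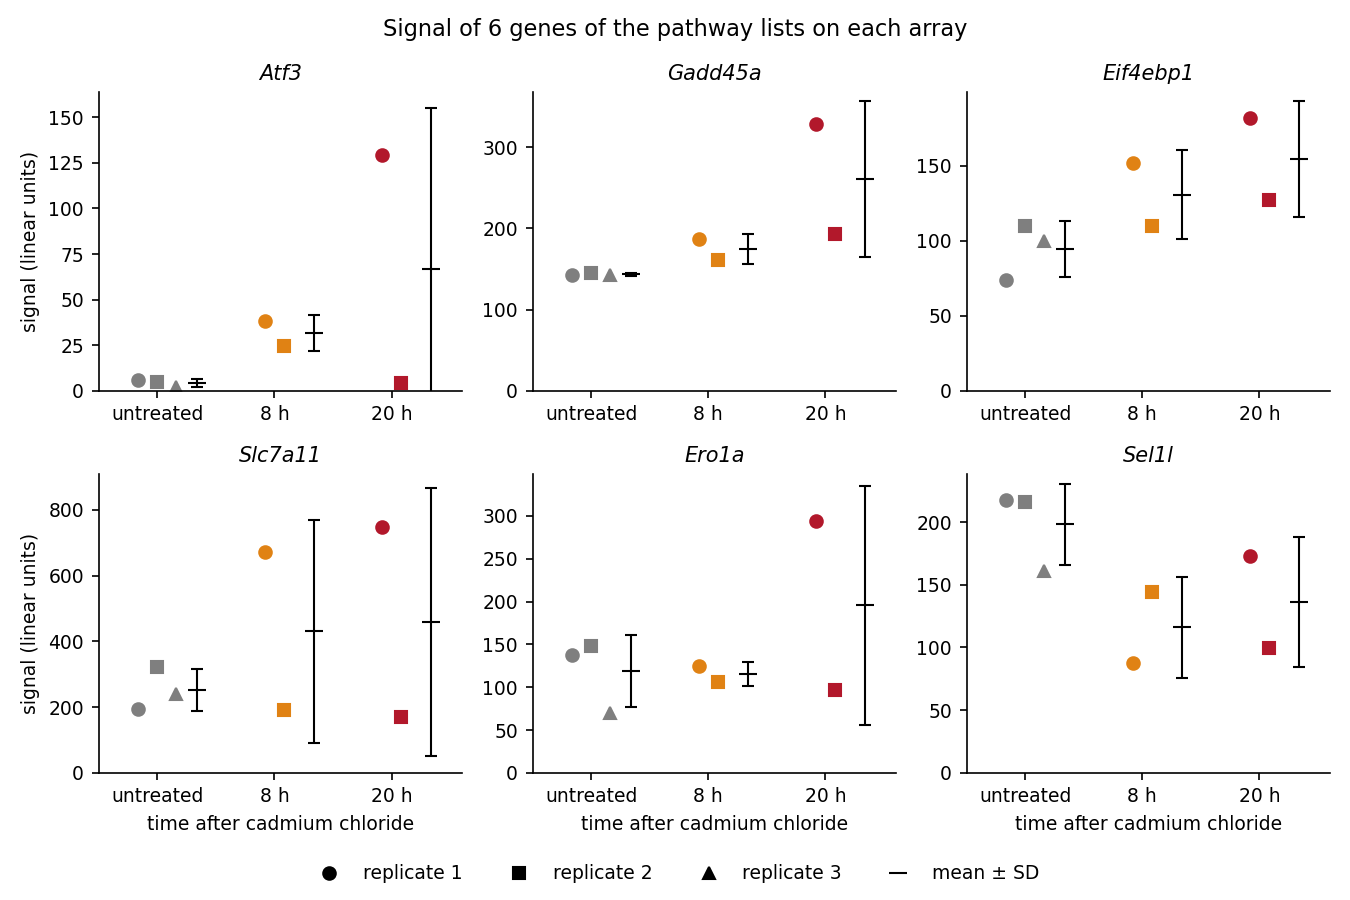
Signal (linear units) on each array of 6 genes of the pathway lists, by time after cadmium chloride; symbols mark the replicate and bars the mean ± SD of 3 untreated, 2 8 h and 2 20 h arrays, cut at 0 for Atf3. Gadd45a is above the untreated arrays on all 4 cadmium arrays, Atf3, Slc7a11 and Ero1a are highest on 20 h replicate 1, and both 8 h arrays of Sel1l are below the untreated ones.

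Genes of amino acid synthesis, transport and one-carbon metabolism, the metabolic programme of ATF4, were not higher as a list. Of 20 genes, 19 had a probe set and 17 were above the filter; 8 were higher and 9 lower at 8 h (median log2 fold change -0.07), and 6 were higher and 11 lower at 20 h (median -0.09). Leaving out 20 h replicate 1 gave 4 higher and 13 lower (median -0.14). Slc7a11, the cystine importer, was the only one at least 2-fold higher on 20 h replicate 1. It had 194.8, 322.8 and 240.1 in untreated testis, 671.4 and 190.5 at 8 h, and 748.6 and 170.1 at 20 h, so that 1 animal at each time was high and the other below the untreated range (log2 fold change 0.52 ± 0.60 at both times, SE). Slc7a1, the cationic amino acid transporter, had all 4 cadmium arrays below each untreated array, as for 4.40% of all genes. It had 269.1 and 177.6 at 8 h and 249.8 and 220.5 at 20 h, against 320.3, 278.2 and 373.0 in untreated testis. Its log2 fold change at 8 h was -0.53 ± 0.22 (SE; limma, unadjusted p = 0.0360, adjusted p = 0.836). Slc7a5, the large neutral amino acid transporter, had log2 fold changes of -0.63 at 8 h and -0.82 at 20 h, but its untreated arrays ran from 255.3 to 663.3 and the groups overlapped. Its same-day differences were 0.48 and -0.04 for the 8 h arrays, -0.98 for 20 h replicate 1 and -0.19 for 20 h replicate 2. The neutral amino acid carriers Slc1a4 and Slc1a5 had log2 fold changes of 0.18 at 8 h and 0.25 at 20 h, within their standard errors of 0.21 and 0.35.

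Aminoacyl-tRNA synthetases load tRNAs with amino acids, and ATF4 drives many of them. Their list, which also holds the tRNA exporter Xpot, had no gene with a 2-fold same-day difference on any cadmium array. Of 19 genes, 18 were above the filter, 12 higher and 6 lower at 8 h (median log2 fold change 0.05), and 9 higher and 9 lower at 20 h (median 0.01). Leaving out 20 h replicate 1 gave 11 and 7 (median 0.05). Against the untreated array of the same day, 6 and 4 of the 18 were higher on the 8 h arrays (medians -0.08 and -0.12). On 20 h replicate 1, 15 of the 18 were higher (median 0.09), and on 20 h replicate 2, 5 were (median -0.09). Eprs1 had a log2 fold change of 0.59 ± 0.32 at 8 h and Rars1 of 0.39 ± 0.20 at 8 h and 0.24 ± 0.20 at 20 h (SE). The same-day differences of Eprs1 on the 8 h arrays were 0.09 and -0.22. Log2 fold changes of Iars1 and Nars1 were -0.31 and -0.22 at 8 h, and at 20 h Tars1 had 0.25, Cars1 -0.16 and Gars1 -0.15. Gars1 had all 4 cadmium arrays below each untreated array, as for 4.40% of all genes, from 411.6 to 460.4 against 467.0 to 505.8. None of them passed the test.

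The eIF2 kinases other than PERK, the subunits of eIF2 and of its exchange factor eIF2B, and the eIF2 phosphatase subunits were all 15 above the filter. They had 9 higher and 6 lower means at 8 h (median log2 fold change 0.07) and 11 higher and 4 lower at 20 h (median 0.08), with none past the test and none 2-fold apart on the same day. Without 20 h replicate 1 the counts at 20 h were again 11 and 4, with a median of 0.19. Eif2s1, the alpha subunit of eIF2 that the kinases phosphorylate, had all 4 cadmium arrays above each untreated array, as for 2.19% of all genes. It had 6450.8 and 6289.4 at 8 h and 6134.9 and 7319.1 at 20 h, against 6130.6, 5787.0 and 6082.8 in untreated testis. The log2 fold change of Eif2s1 was 0.09 ± 0.13 at 8 h and 0.16 ± 0.13 at 20 h (SE). Ppp1r15b, the constitutive counterpart of Ppp1r15a, did not share its high value, with 114.6 and 99.9 at 8 h and 177.8 and 94.7 at 20 h, against 196.1, 220.8 and 123.1 in untreated testis (log2 fold change -0.64 ± 0.30 at 8 h and -0.39 ± 0.30 at 20 h, SE). The same-day differences of Ppp1r15b were smaller, with -0.09 and -0.27 at 8 h and -0.13 and -0.33 at 20 h. Eif2s2, the beta subunit of eIF2, had log2 fold changes of 0.31 ± 0.15 at 8 h and 0.27 ± 0.15 at 20 h (SE), Eif2b2 had 0.30 at 8 h and Ppp1cb, a catalytic subunit of the phosphatase, 0.37 at 20 h. Eif2ak4, the kinase GCN2 that senses uncharged tRNA, had -0.43 at 8 h and 0.22 at 20 h, and Eif2ak2, the kinase PKR that senses double-stranded RNA, -0.21 at 20 h.

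The list of other ER stress sensors and the proteases that release them, which also holds Traf2, Bak1 and Bax, had 14 genes. Ern1, which encodes IRE1, had no probe set of its own, but 11 of the 14 had one and all 11 passed the filter. They had 5 higher and 6 lower means at 8 h (median log2 fold change -0.04) and 4 higher and 7 lower at 20 h (median -0.09). Leaving out 20 h replicate 1 gave 6 higher and 5 lower means at 20 h (median 0.05). On 20 h replicate 1 the same-day differences had a median of -0.25, with 1 of 11 genes higher, against medians of 0.16 and 0.03 on the 8 h arrays and of 0.13 on 20 h replicate 2. Mbtps1, the Golgi protease that makes the first cut in ATF6, had 301.1 and 310.7 at 8 h and 267.0 and 275.3 at 20 h, against 445.2, 399.2 and 340.8 in untreated testis. All 4 cadmium arrays of Mbtps1 were below each untreated array, as for 4.40% of all genes, with a log2 fold change of -0.35 ± 0.17 at 8 h and -0.51 ± 0.17 at 20 h (SE; limma, unadjusted p = 0.0131 and adjusted p = 0.999 at 20 h). The membrane-bound transcription factors of this family differed in sign without passing the test: Creb3 had log2 fold changes of 0.30 at 8 h and 0.19 at 20 h, Creb3l1 0.21 and Creb3l3 -0.32 at 8 h, and the dim Creb3l4 0.68 at 20 h. Bak1, a cell death effector that also acts at the ER, had -0.30 at 20 h.

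ER chaperones and folding enzymes, the output of ATF6 and XBP1 to which Hspa5 belongs, had median log2 fold changes near 0. Of 27 genes, 25 were above the filter, 14 higher and 11 lower at 8 h (median 0.02), and 18 higher and 7 lower at 20 h (median 0.05). Without 20 h replicate 1 the counts at 20 h were 13 and 12. Pdia3, a protein disulphide isomerase of the calnexin cycle, had 2900.5 and 3114.8 at 8 h and 2819.6 and 3112.9 at 20 h. Each was above the untreated 2362.4, 2484.8 and 2801.3, as for 2.19% of all genes. The log2 fold change of Pdia3 was 0.24 ± 0.13 at 8 h and 0.22 ± 0.13 at 20 h (SE). Erp44, a thioredoxin-like protein that retains folding enzymes in the early secretory pathway, was likewise among the 2.19% with all 4 cadmium arrays above each untreated array. It had 696.0 and 651.9 at 8 h and 664.2 and 665.9 at 20 h, against 568.1, 531.2 and 626.6 in untreated testis. The log2 fold change of Erp44 was 0.23 ± 0.14 at 8 h and 0.21 ± 0.14 at 20 h (SE). Ero1a, the oxidase that recharges these isomerases and a known hypoxia gene, was the only one 2-fold higher on 20 h replicate 1, with 294.1 there and 97.1 on 20 h replicate 2, against 137.4, 147.7 and 70.4 in untreated testis. Pdia4, another isomerase, had log2 fold changes of -0.58 ± 0.41 at 8 h and -0.44 ± 0.41 at 20 h (SE). Its untreated arrays ran from 177.4 to 423.4, and its same-day differences were 0.17 and 0.01 at 8 h and 0.08 and -0.45 at 20 h. The log2 fold change of the cofactor Dnajb11 was 0.24 and that of Uggt1, the folding sensor of glycoproteins, -0.23 at 8 h. At 20 h that of Creld2 was 0.30 and that of the prolyl isomerase Fkbp2 -0.46. None of these passed the test.

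ER-associated degradation and translocation genes, with 24 of 26 having a probe set and 23 above the filter, had 11 higher and 12 lower means at both times (median log2 fold change -0.03 at 8 h and -0.02 at 20 h). At 20 h without replicate 1 they had 13 higher and 10 lower means (median 0.03). Ssr1, a subunit of the translocon-associated complex, had 1246.1 and 1342.3 at 8 h and 1400.0 and 1305.7 at 20 h, against 1001.8, 1074.1 and 878.3 in untreated testis. All 4 cadmium arrays of Ssr1 were above each untreated array, as for 2.19% of all genes. Its log2 fold change was 0.39 ± 0.14 at 8 h and 0.46 ± 0.14 at 20 h (SE; limma, unadjusted p = 0.0204 and 0.00967, adjusted p = 0.836 and 0.999). Sel1l, the scaffold of the main ubiquitin ligase of ER degradation, had 87.4 and 144.6 at 8 h and 172.8 and 99.6 at 20 h. Its untreated values were 217.9, 215.8 and 160.9, so both 8 h arrays were below them, as for 15.4% of all probe sets. The log2 fold change of Sel1l at 8 h was -0.73 ± 0.29 (SE; limma, unadjusted p = 0.0303, adjusted p = 0.836). Sec61b, a translocon subunit, had log2 fold changes of 0.32 at 8 h and 0.20 at 20 h. Edem2, a mannosidase-like protein, had -0.33 at 8 h, and Wfs1, an ER membrane protein, -0.40 at 20 h.

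The animal with the high Atf4 value also differed in some other tissue markers. Sums here take every marker with a probe set, also those below the filter. Hypoxia and glycolysis genes had a summed signal of 10939.7 and 9255.2 at 8 h, of 12465.9 on 20 h replicate 1 and of 9736.4 on replicate 2, against 8253.2, 7947.8 and 9862.5 in untreated testis. All 11 above the filter were higher on that array than on the untreated array of its day, with a median same-day difference of 0.96. Of the 11, 5 were at least 2-fold higher (45.5%), where 1.25% of all genes were. Adm, 1 of the 5, passed the filter only through 8 h replicate 1 (43.3) and that array (322.3). Bnip3, which low oxygen induces and which marks mitochondria for removal, had 1400.3 there and at most 281.0 elsewhere, and Vegfa 578.8 there and at most 111.4 elsewhere. Leydig cell markers (8 of 8 above the filter) summed to 11675.8 and 7331.3 at 8 h, to 2854.7 on 20 h replicate 1 and to 7568.4 on replicate 2, against 6223.9, 7203.2 and 8536.1 in untreated testis. Cyp17a1, a steroid hydroxylase, was at 127.4 on 20 h replicate 1 and at 1116.0 or more elsewhere. On the same day 1 of the 8 was higher on that array and 3 were at least 2-fold lower, where 229 of 11552 genes were. The median difference was -0.66, and Insl3 differed by -0.19. Endothelial markers (8 of 9 with a probe set, 7 above the filter) summed to 326.0 and 596.8 at 8 h. Their sum was 294.9 on 20 h replicate 1 and 651.0 on replicate 2, against 749.2, 767.7 and 664.1 in untreated testis. On the same day 0 of the 7 were higher on 20 h replicate 1 and 5 were at least 2-fold lower, with a median difference of -1.52. Blood and plasma markers summed to 3696.7 on that array, above the 1779.1 to 2762.1 of the other 6. Most of that sum was Hbb, at 2954.0 there and 1038.0 to 1958.1 elsewhere. Of the 5 markers 3 were higher on the same day, with a median difference of 0.06. Macrophage markers summed to 1830.9, close to the highest of the other 6 arrays (1577.8 to 1809.2). On the same day 6 of the 8 were higher, 2 of them at least 2-fold. Cd163 was above each untreated array on all 4 cadmium arrays, as for 2.19% of all genes, and Csf1r below, as for 4.40%. Smc1b of the germ cell list was likewise above and Kdr of the endothelial list below. Peritubular myoid and smooth muscle markers summed to 1754.8 on 20 h replicate 1, beside 1375.1 to 1665.8 on the other 6 arrays. Of these 5 markers only Des, the muscle filament desmin, was at least 2-fold above the untreated array of the day. As a list they did not move on the same day, with 2 of 5 higher and a median difference of -0.00024. Germ cell markers had higher means for 10 of 11 genes at 8 h and 11 of 11 at 20 h than in untreated testis (median log2 fold change 0.30 and 0.13). On the same day 5 to 8 of the 11 were higher on each cadmium array, with medians of -0.04 to 0.09. Of the neutrophil markers 1 of 6 was above the filter, and no marker of any list was listed at 0. The part of these differences in the high Atf4, Ppp1r15a, Atf3 and Ndrg1 values was not tested, and Ndrg1 itself stands in the hypoxia list as well. The comparisons of 8 h and of 20 h with untreated testis share the untreated arrays, so their fold changes are not independent.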

How the data were processed

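Total RNA of testis from 7 rats had been hybridized to Affymetrix Rat230_2 arrays, and groups were taken from the sample titles. What the authors deposited is 1 linear-scale intensity for each probe set and array; MAS 5.0 and GeneSpring 7.2 are named in the submitters' processing notes and the series' design text. Other information (array type, hybridization day, staining settings) came from the deposited experiment files, per the file headers. The file of untreated replicate 2 calls its sample mouse, although the array type is Rat230_2 and the labels say rat, and the array was used.

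Of 31099 probe sets, 57 are controls. The analysis used log2(signal + 15), where 15 is the rounded 20th percentile of all values, with no further normalization, so a fold change understates that of dim probe sets. To be tested, a probe set had to exceed the 40th percentile of the array on 2 or more arrays, which left 20857. One limma model (version 3.58.1, R 4.3.3) held the 3 groups, and eBayes was run with its trend option (4 residual and 5.48 prior degrees of freedom). Benjamini-Hochberg adjustment ran over all probe sets tested, with a threshold of 0.05, and the code was tested on simulated data. Lists use 1 probe set per gene, the brightest, for 11552 genes.

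The members and lists were chosen with earlier results of these data known. All 10 members are given with all their probe sets, 0 of which name several genes. From each pathway list and time the rule named 2 genes by the most positive and 2 by the most negative fold change. Genes 2-fold apart on 20 h replicate 1, or on 1 side of the untreated arrays, were named after their values were seen, and the list values without 20 h replicate 1 and the Sesn2 probe set below the filter were added then too. The 10 members matched the RefSeq table by Entrez ID, and promoter sequences are RefSeq's, in assembly GRCr8. The labels tie the replicate numbers to no shared animal or batch. Differences between replicates 1 and 2 correlated at 0.14 between 8 h and 20 h, at -0.0014 between 8 h and untreated and at 0.09 between 20 h and untreated arrays, so the numbers were not used as pairs. Alternatives changed the offset, the filter, the normalization, the trend, the arrays in the fit, and the hybridization day or the replicate number as a block.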

Additional observations from a re-analysis of the deposited data

How the results depend on the processing

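Over the 17 alternatives of each of the 27 member values (18 for Sesn2, and 16 for Eif2ak3, which did not pass the stricter filter at the 60th percentile), 0 member values reached an adjusted p under 0.05 (lowest 0.133), 0 member probe sets were called in any setting, and 8 values kept their sign throughout, among them Atf4 and Ddit3 at 8 h and Asns, Hspa5 and Eif2ak3 at 20 h. On the day 3 arrays alone 8 probe sets were called at 8 h and 2 at 20 h; leaving out 1 array at a time gave 0 to 1 calls at 8 h, 0 to 8 at 20 h (8 without 20 h replicate 2) and 0 to 1 for 20 h against 8 h.
The sign turned as follows, and the cause was not tested. On day 3 alone the log2 fold changes were -0.18 for Atf4 and -0.17 for Ddit3 at 20 h, -0.13 for Hspa5, -0.15 for Xbp1 and 0.043 for Ppp1r15a at 8 h, and -0.21 for Atf4 and -0.023 for Ppp1r15a at 20 h against 8 h. With the day as a block they were -0.032 for Asns, -0.11 for Hspa5, -0.067 for Xbp1 and 0.47 for Ppp1r15a at 8 h, and 0.0057 for Xbp1 at 20 h against 8 h. Quantile normalization gave -0.0012 for Asns, -0.0093 for Hspa5, 0.027 for Sesn2 and 0.14 for Ppp1r15a at 8 h, 0.0039 for Sesn2 at 20 h and -0.023 for Sesn2 at 20 h against 8 h. Scaling to one 75th percentile gave 0.056 for Sesn2 and 0.041 for Ppp1r15a at 8 h, 0.0090 for Xbp1, 0.021 for Herpud1 and 0.017 for Sesn2 at 20 h, and -0.0049 for Asns and -0.039 for Sesn2 at 20 h against 8 h. The replicate block gave 0.078 for Xbp1 at 20 h and 0.030 and 0.036 for Sesn2 at 8 h and 20 h, with 0 probe sets called in each comparison; it changed no other sign, and the replicate numbers do not pair the samples.
Leaving out 1 array at a time turned the sign within these ranges. At 8 h Xbp1 ran from -0.061 to 0.27, Sesn2 from -0.22 to 0.050 and Ppp1r15a from -0.58 to 0.48. At 20 h Atf4 ran from -0.091 to 1.19, Xbp1 from -0.16 to 0.078, Herpud1 from -0.16 to 0.058, Sesn2 from -0.22 to 0.057 and Ppp1r15a from -0.075 to 1.65. At 20 h against 8 h Atf4 ran from -0.21 to 1.07, Ddit3 from -0.18 to 0.11, Asns from -0.11 to 0.20, Hspa5 from -0.099 to 0.26, Xbp1 from -0.32 to 0.012, Sesn2 from -0.040 to 0.054, Ppp1r15a from -0.023 to 1.70 and Eif2ak3 from -0.094 to 0.48. An arm left with 1 array is assumed to vary like the others. The other probe set of Sesn2, fitted with no filter, a setting chosen after seeing the data, gave -0.28 at 8 h, 0.29 at 20 h and 0.57 at 20 h against 8 h. Dimness limits Trib3, Eif2ak3 and Atf3.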
